A study of Mus musculus with 9 samples.

Results

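The inflammatory caspases Casp1, Casp4 and Casp12, the initiator caspase Casp8, the pore-forming protein gasdermin D (Gsdmd) and the necroptosis genes Ripk1, Ripk3 and Mlkl were described in primary renal tubular epithelial cells of C57BL/6 mice. The members were the 8 genes with exactly these symbols in the deposited expression table, out of 31167 genes. The Sham group was the negative control. The H/R group had 6 h of hypoxia at 1.0% oxygen in medium without glucose and then 18 h of reoxygenation, a culture model of ischemia and reperfusion. The EGR1OV group was transfected with a plasmid that expresses Egr1, an immediate early transcription factor, from the CMV promoter, which is active in most cell types. Each of the 3 groups had 3 RNA-seq libraries, and the wider study asked what EGR1 does in injured tubular cells. The study describes the Sham cells as untreated. An empty-vector group was not analysed here, so Egr1 and the transfection itself cannot be told apart in EGR1OV. The labels do not say that the 3 libraries of a group came from separate cultures or animals, so p-values measure only the spread between these libraries.

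Cells die by several regulated routes. In pyroptosis, inflammatory caspases cut gasdermin D, and its freed end forms pores in the plasma membrane through which interleukins can leave the cell. Casp1 is activated in inflammasomes, whereas Casp4, the mouse caspase-11, is activated by bacterial lipopolysaccharide in the cytosol. In necroptosis, Ripk1 or another adaptor activates the kinase Ripk3, which phosphorylates Mlkl, and Mlkl then breaks the membrane. Casp8 holds this route in check by cutting Ripk1 and Ripk3, and it also starts apoptosis below death receptors. Both routes are studied in kidney tubules as ways in which cells are lost in acute injury. All of these proteins are controlled after translation, and only mRNA was measured here.

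Values are FPKM, fragments scaled by the exon length of the gene and by the mapped reads of the library. Recovered depth was 16183539 to 18383915 reads per library, which are close to each other. The median coefficient of variation was 3.50% for Sham, 3.84% for H/R and 3.88% for EGR1OV. It was taken only over genes averaging 5 FPKM or more, so it leaves out Casp1, Casp4, Casp12, Gsdmd and other low tested genes. Egr1 itself was 6.20, 6.91 and 6.09 FPKM in the Sham libraries. It was 8.57, 7.59 and 7.48 FPKM in those of H/R, and 45.7, 42.2 and 40.1 FPKM in those of EGR1OV. The groups did not overlap, and Egr1 was highest in the overexpression libraries. Of the tubule markers, Epcam, Cdh1, Krt8 and Krt18 were abundant (76.2 ± 0.881, 86.2 ± 0.247, 1014 ± 11.8 and 685 ± 13.3 FPKM in Sham, SD, n = 3), and the tubule cadherin Cdh16 was 24.3 ± 0.636 FPKM. Segment markers were mixed. Of the proximal tubule, Lrp2 was 3.51 to 3.67, Aqp1 1.23 to 1.43 and Cubn 0.503 to 0.572 FPKM in the Sham libraries, while Slc34a1 did not exceed 0.0362 FPKM in any library. Umod, of the thick ascending limb, was at 0 in all 9 libraries. One small RNA gene, Gm23935, was much higher in Sham 3, H/R 2 and H/R 3 (19504 to 21700 FPKM) than in the other 6 libraries (1494 to 9378 FPKM). All calls on the 8 genes were the same without these 3 libraries.

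Casp1, Casp4 and Casp12 are neighbours on chromosome 9, in that order and on the same strand, at 5298517 to 5307265, 5308828 to 5336783 and 5345430 to 5373032 (GRCm38). They span 74516 bases, with gaps of 1562 bases between Casp1 and Casp4 and of 8646 bases between Casp4 and Casp12. The other members lie apart from them and from each other. Casp8 is on chromosome 1 (58795374 to 58847503, plus strand), Mlkl on chromosome 8 (111311797 to 111338177, minus strand), Ripk1 on chromosome 13 (34002363 to 34037147, plus strand), Ripk3 on chromosome 14 (55784995 to 55788865, minus strand) and Gsdmd on chromosome 15 (75862339 to 75867404, plus strand). Ripk1 shares 9.01% of its exonic bases with Serpinb6a, on the other strand, and Gm17084, and 4.37% of the 50-base stretches of Casp8 also occur in Gm20257. Reads from these stretches could have been split or added between the genes. No 50-base stretch of Casp1, Casp4, Casp12, Mlkl, Ripk3 or Gsdmd occurs in another annotated transcript.

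The sequences before the start sites are shown for Mlkl and Casp4, which had the largest changes, up to the first base annotated as the gene in RefSeq or in the table's positions, whichever comes first. Capitals mark every match to the motifs named below.
Mlkl, chr8:111338206-111338455 (minus strand, GRCm38.p6, RefSeq): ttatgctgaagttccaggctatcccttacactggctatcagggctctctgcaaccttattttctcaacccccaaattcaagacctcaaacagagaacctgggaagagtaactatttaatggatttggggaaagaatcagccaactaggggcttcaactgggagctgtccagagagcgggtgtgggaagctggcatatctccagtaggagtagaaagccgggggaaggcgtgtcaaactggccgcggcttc
Casp4, chr9:5308599-5308827 (plus strand, GRCm38.p6, RefSeq): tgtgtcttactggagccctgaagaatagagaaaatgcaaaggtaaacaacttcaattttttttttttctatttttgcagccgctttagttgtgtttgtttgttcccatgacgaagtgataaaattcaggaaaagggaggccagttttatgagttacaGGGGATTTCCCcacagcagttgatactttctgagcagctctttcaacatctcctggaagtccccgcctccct

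Windows from 250 bases before to 50 bases after the start site were searched on both strands in 32851 RefSeq promoters, and 7 of the 8 genes had at least 1. The motifs were the interferon-stimulated response element GAAANNGAAA (in 3.44% of all promoters), the gamma-activated site TTCNNNGAA (8.30%) and the EGR1 sites GCGTGGGCG (0.612%) and GCGGGGGCG (2.91%). The NF-kB site (4.51%) was added after the sequences had been seen, and Casp4 held 2 overlapping matches to it. The matches in Casp12 and at the second start site of Ripk1 are shown with 10 bases on each side, the motif in capitals.
Casp12, gamma-activated site, chr9:5345364-5345392 (plus strand): ctggttgactTTCTGGGAAaagagcagga
Casp12, gamma-activated site, chr9:5345430-5345458 (plus strand): attggtatgtTTCTGGGAAggaaaggcac
Ripk1, gamma-activated site, chr13:34002756-34002784 (plus strand): agaagctggtTTCCCGGAAggggcggagg
Ripk1, interferon-stimulated response element, chr13:34002859-34002888 (plus strand): aacgttcccgGAAATCGAAAagcgcggaac
Ripk1 also had a gamma-activated site that overlaps its interferon element by sequence. Neither form of the EGR1 site occurred in the windows of these 7 genes, and the windows of Casp1, Casp8, Mlkl and Ripk3 held none of the motifs. A match is a description of letters and not a bound site.

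The first comparison asked how the 8 genes differed between EGR1OV and Sham cells. Mlkl, Casp4, Gsdmd, Ripk3 and Casp12 were higher in EGR1OV, Mlkl and Casp4 by the largest factors. A gene was called when its adjusted p in limma was under 0.05 and its change in log2(FPKM + 1) was at least that of a 1.3-fold change. By this rule 5 of the 8 genes were called higher and 0 lower, where 9.87% of the 13985 tested genes were called higher and 6.51% lower. Without the fold threshold 7 of the 8 were higher, against 26.1% of all tested genes. The median difference was 0.53 on the log2 scale over the 8 genes and 0.02 over all tested genes. All 8 passed the filter of a mean of 0.5 FPKM over the 9 libraries, Casp4 only because of its level in EGR1OV. Below, the added 1 makes a log2 difference smaller than the log2 of the ratio of mean FPKM, most of all for low genes, and both are given for each called gene of the 8.

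**Figure D1:**
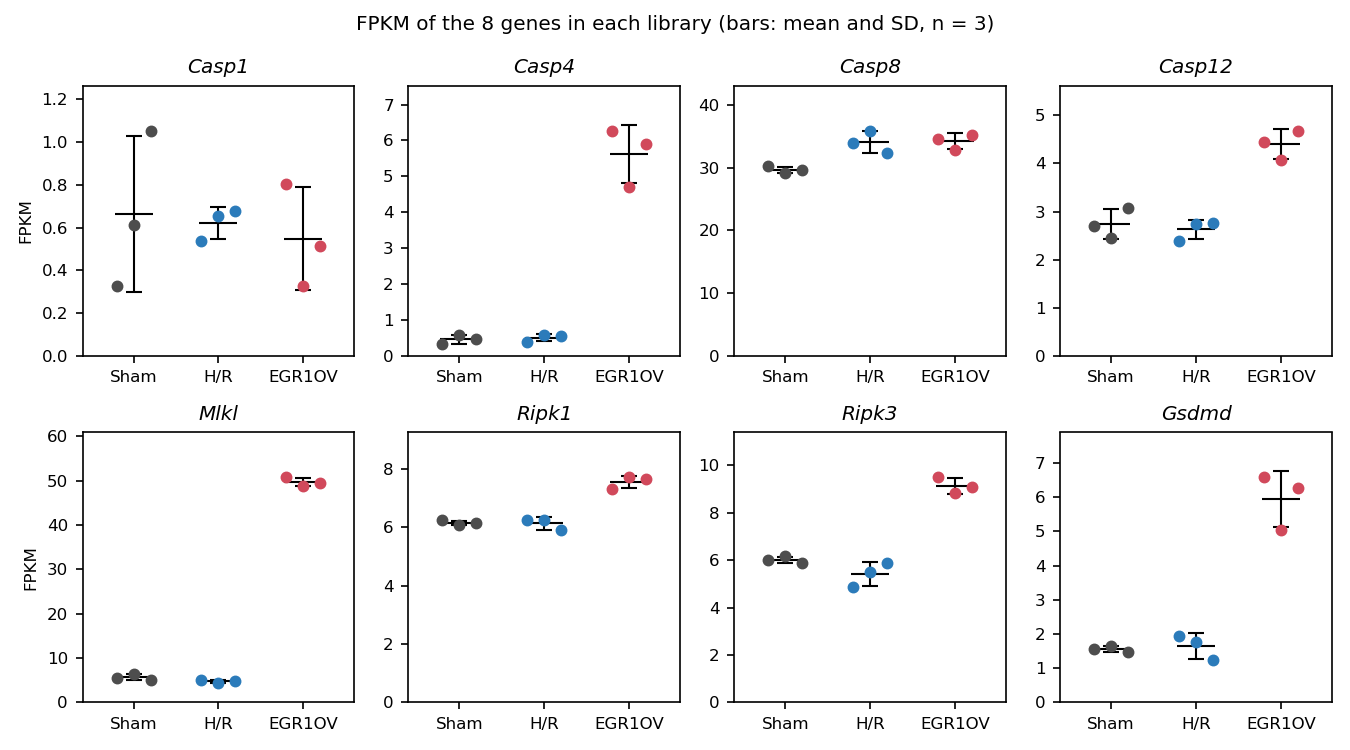
FPKM of each of the 8 genes (vertical axes, from 0, a separate scale per gene) in the 3 libraries of Sham, H/R and EGR1OV; points are libraries, and bars are the group mean and SD. The EGR1OV points of Mlkl (48.9 to 50.7 FPKM), Casp4 (4.70 to 6.26 FPKM) and Gsdmd (5.03 to 6.58 FPKM) sit far above the other 2 groups, while those of Casp1 overlap them.

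Mlkl, the membrane-breaking end of necroptosis, was 5.47, 6.48 and 5.08 FPKM in Sham and 50.7, 48.9 and 49.4 FPKM in EGR1OV. The lowest EGR1OV library was several times the highest Sham library, and the SD of the EGR1OV libraries was 0.950 FPKM. Mean Mlkl was 8.76 times that of Sham, with a log2 difference of 2.93 ± 0.0739 (SE, limma, adjusted p = 1.89e-09). Ripk3, the kinase that acts on Mlkl, was 6.00, 6.16 and 5.87 FPKM in Sham and 9.48, 8.84 and 9.07 FPKM in EGR1OV. The groups did not overlap, and the rise of Ripk3 was much smaller than that of Mlkl, 1.52 times in mean FPKM (log2 difference 0.53 ± 0.0587, limma, adjusted p = 7.19e-05).

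Ripk1, the kinase and scaffold below death receptors, was 6.23, 6.07 and 6.13 FPKM in Sham and 7.30, 7.70 and 7.63 FPKM in EGR1OV. Casp8, the brake on necroptosis, was 30.2, 29.1 and 29.6 FPKM in Sham and 34.7, 32.8 and 35.2 FPKM in EGR1OV. Both had separate ranges in the 2 groups, and both differed by less than the fold threshold. The log2 difference was 0.26 ± 0.0382 for Ripk1 (ratio of means 1.23, limma, adjusted p = 0.000462) and 0.20 ± 0.0415 for Casp8 (ratio 1.15, limma, adjusted p = 0.00355).

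Casp4 was 0.328, 0.572 and 0.474 FPKM in Sham and 6.26, 4.70 and 5.91 FPKM in EGR1OV. This was 20 to 37 reads per Sham library and 285 to 386 reads per EGR1OV library, so the ratio of means of 12.3 rests on a low base. The log2 difference was 2.18 ± 0.105 (limma, adjusted p = 2.27e-07). It was 3.37 with 0.1 instead of 1 added to each value and 3.62 with voom on recovered reads, both above the values of Mlkl under the same settings (3.11 and 3.13), so which of the 2 genes rose more depends on the scale. When all genes were tested, low ones included, the adjusted p of Casp4 in limma was 3.67e-06. Casp12, a caspase of the same cluster that has been linked to stress of the endoplasmic reticulum, was 2.71, 2.45 and 3.08 FPKM in Sham and 4.45, 4.06 and 4.67 FPKM in EGR1OV. The groups did not overlap, and the ratio of means was 1.60 (log2 difference 0.53 ± 0.0753, limma, adjusted p = 0.000366).

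Casp1, which lies next to Casp4, was 0.325, 0.613 and 1.05 FPKM in Sham and 0.804, 0.327 and 0.516 FPKM in EGR1OV. The ranges overlapped, and there were 8 to 26 reads per library over all 9 libraries. The log2 difference was -0.09 with a 95% interval of -0.46 to 0.28 (limma, adjusted p = 0.687). The added 1 shrinks changes at this low level, so a large fall or a moderate rise in FPKM lies within this interval. The sign of the difference turned without Sham 3 (0.07) and without EGR1OV 2 (0.01), and the difference was -0.24 without Sham 1 and -0.21 without EGR1OV 1. Gsdmd, the substrate of Casp1 and Casp4, was 1.58, 1.65 and 1.47 FPKM in Sham and 6.58, 5.03 and 6.26 FPKM in EGR1OV. All EGR1OV libraries were above all Sham libraries, and mean Gsdmd was 3.81 times that of Sham (log2 difference 1.43 ± 0.114, limma, adjusted p = 7.81e-06). An exact two-sided permutation test of 3 against 3 libraries cannot go below p = 0.1, and it gave that value for the genes other than Casp1. How many of all tested genes had groups without overlap was not counted.

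**Figure D2:**
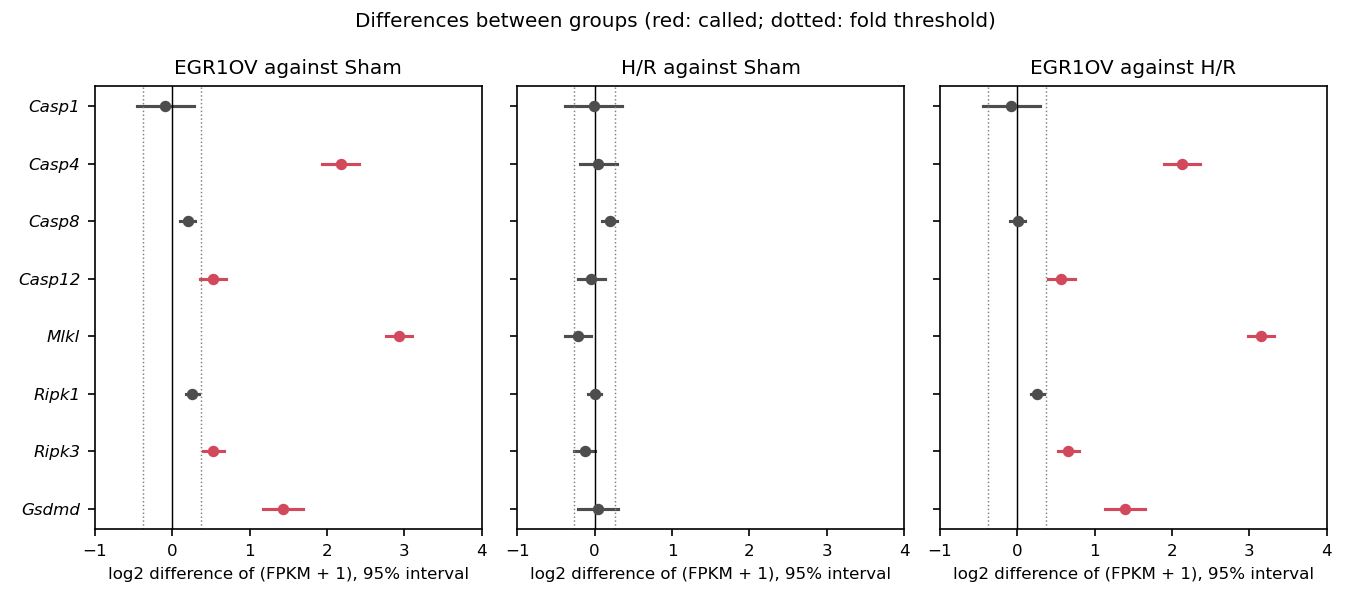
Difference in log2(FPKM + 1) of each gene (points, with 95% intervals from limma) for EGR1OV against Sham, H/R against Sham and EGR1OV against H/R; red marks called genes and dotted lines the fold thresholds of 1.3, 1.2 and 1.3. In both comparisons of EGR1OV the same 5 genes are red, with Mlkl farthest to the right on this scale at 2.93 and 3.15, and no gene is red in H/R against Sham.

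The second comparison asked how the genes differed between H/R and Sham. With the study's threshold for H/R of 1.2-fold, limma called 0 of the 8 higher and 0 lower, where 1.60% of all tested genes were called higher and 2.65% lower. Voom on the recovered reads also called 0. At an unadjusted p under 0.05, 2 of the 8 differed (Casp8 and Mlkl), against 28.0% of all tested genes. When the adjusted p alone decided, Casp8 was the 1 gene that was higher, against 4.15% of all tested genes. The median difference over the 8 genes was -0.01 on the log2 scale, and -0.03 over all tested genes.

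Casp8 was 34.0, 35.9 and 32.3 FPKM in the H/R libraries, all above the Sham libraries. The log2 difference was 0.19 ± 0.0415 (ratio of means 1.15, limma, adjusted p = 0.0198). Mlkl was 4.96, 4.32 and 4.90 FPKM in H/R, all below the Sham libraries, with a ratio of means of 0.833 and a log2 difference of -0.22 (95% interval -0.38 to -0.05, limma, adjusted p = 0.0927).

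The ranges of the remaining genes overlapped those of Sham. Ripk3 was 4.85, 5.51 and 5.88 FPKM in H/R, 1 library above the lowest Sham value (log2 difference -0.13, limma, adjusted p = 0.183). Ripk1 was 6.26, 6.26 and 5.89 FPKM, and its log2 difference had a 95% interval of -0.09 to 0.08, the narrowest of the 8. Casp4 was 0.400, 0.572 and 0.547 FPKM (interval -0.19 to 0.29), and Casp12 2.40, 2.73 and 2.76 FPKM (interval -0.21 to 0.13). For both, the interval spans 0. Gsdmd was 1.95, 1.78 and 1.24 FPKM (interval -0.22 to 0.30), more spread than in Sham, and Casp1 was 0.537, 0.654 and 0.678 FPKM (interval -0.38 to 0.36).

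The direct comparison of EGR1OV with H/R tested whether the 2 groups differed from each other. Again 5 of the 8 genes were higher in EGR1OV and 0 lower, where 11.9% of all tested genes were called higher and 6.94% lower. Without the fold threshold 6 were higher, against 32.0%. Mean FPKM in EGR1OV was 10.5 times that in H/R for Mlkl, 11.1 times for Casp4 and 3.60 times for Gsdmd. It was 1.69 times for Ripk3 and 1.67 times for Casp12. In the same order, the log2 differences were 3.15, 2.13, 1.39, 0.66 and 0.57 (limma, adjusted p = 1.07e-09, 2.54e-07, 8.73e-06, 1.45e-05 and 0.000196). Ripk1 differed by 0.26 on the log2 scale, below the threshold (limma, adjusted p = 0.000381). Casp8 had overlapping ranges and a log2 difference of 0.01 (95% interval -0.09 to 0.10, limma, adjusted p = 0.913), and Casp1 differed by -0.08 (interval -0.45 to 0.29). This comparison shares the EGR1OV libraries with the first and the H/R libraries with the second, so it is no further replicate of either.

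FPKM are scaled by exon length, so levels of genes within a group can be compared only as far as these lengths hold. For Gsdmd the values fitted a length of 1776 bases, against 2377 in the annotation. The order of genes at close levels can thus depend on the lengths used. In Sham the order was Casp8 (29.6 ± 0.536 FPKM, SD, n = 3), Ripk1 (6.14 ± 0.0821), Ripk3 (6.01 ± 0.145), Mlkl (5.67 ± 0.722), Casp12 (2.74 ± 0.315), Gsdmd (1.56 ± 0.0908), Casp1 (0.663 ± 0.366) and Casp4 (0.458 ± 0.123). The neighbours Ripk1 and Ripk3, Ripk3 and Mlkl, and Casp1 and Casp4 did not differ beyond their spread. In H/R the order was the same, and there Ripk3 (5.41 ± 0.520) overlapped Mlkl (4.73 ± 0.352) and Casp1 (0.623 ± 0.0757) overlapped Casp4 (0.506 ± 0.0930). In EGR1OV Mlkl (49.7 ± 0.950) stood above Casp8 (34.2 ± 1.27), followed by Ripk3 (9.13 ± 0.328), Ripk1 (7.55 ± 0.213), Gsdmd (5.95 ± 0.817), Casp4 (5.63 ± 0.820), Casp12 (4.40 ± 0.309) and Casp1 (0.549 ± 0.240). Of these neighbours, the ranges of Gsdmd and Casp4 overlapped. By these values Mlkl moved from near Ripk1 and Ripk3 to the first place, and Casp4 from the last place to near its substrate Gsdmd.

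Other genes of the same pathways were described by lists. Beside the list counts below, 9.87% of all tested genes were called higher and 6.51% lower in EGR1OV against Sham. In H/R against Sham these shares were 1.60% and 2.65%. Of 17 inflammasome sensors, adaptors and substrates, 4 passed the filter on low values, and 3 of these were higher in EGR1OV. Il1b, Il1a and Il18 encode interleukins that leave the cell through gasdermin pores, Il1b and Il18 after Casp1 has cut them. Il1b was 0.638, 0.150 and 0.381 FPKM in Sham and 9.19, 7.06 and 9.19 FPKM in EGR1OV, with no overlap (ratio of means 21.8). Il1b passed the filter only through EGR1OV, which fixed its call. The log2 differences of Il1a and Il18 were 1.88 and 1.08 (ratios of means 7.64 and 2.91). The adaptor Pycard and the sensors Nlrp3, Aim2 and Nlrc4, chosen here after their values were seen, did not exceed 0.426 FPKM in any library. Pycard was at 5 to 10 reads in the Sham libraries and at 4, 3 and 2 reads in the EGR1OV libraries, and Aim2 at 17 to 26 and at 15, 12 and 6 reads. Both were thus lower in EGR1OV by their ranges, with ratios of mean FPKM of 0.433 and 0.551, but neither was tested, and these counts are small. The sensor Naip2, also not tested, averaged 0.382 FPKM in Sham and 0.598 FPKM in EGR1OV, with overlapping ranges. The remaining tested gene, Nek7, averaged 18.2 FPKM in Sham and 15.7 FPKM in EGR1OV, without overlap. Its log2 difference of -0.21 was below the fold threshold (limma, adjusted p = 0.0112). None of the 4 tested genes was called in H/R. Of the other gasdermins and Ninj1, the protein of membrane rupture, 7 were in the table and Ninj1 was the one tested. Ninj1 was not called in either comparison. In EGR1OV it was still higher than in Sham without overlap, at 23.9 against 20.4 FPKM on average. The ratio of means of 1.17 was below the fold threshold (log2 difference 0.22, limma, adjusted p = 0.000273).

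Of 14 adaptors and receptors of the death complexes, all tested, 4 were higher in EGR1OV and 0 lower, with a median difference of 0.14. Of all tested genes, 9.87% were called higher. Zbp1, a sensor of nucleic acids that can activate Ripk3 without Ripk1, was 0.224, 0.163 and 0.154 FPKM in Sham and 27.0, 24.5 and 25.4 FPKM in EGR1OV. The Sham values were 9 to 13 reads, and the EGR1OV values 1415 to 1583 reads, a ratio of mean FPKM of 142. Zbp1 passed the filter on low values only through EGR1OV, which fixed its call. Tlr3, a receptor for double-stranded RNA that signals through the same kinases, was 4.89, 4.44 and 4.83 FPKM in Sham and 27.4, 25.9 and 28.3 FPKM in EGR1OV. Its log2 difference was 2.30 (ratio of means 5.77, limma, adjusted p = 4.93e-10). Tradd, an adaptor of the TNF receptor, rose by a log2 difference of 0.40, as did Traf2. In H/R against Sham 0 of the 14 were higher and 1 was lower, where 2.65% of all tested genes were called lower. The lower gene was the death receptor Fas (5.67 FPKM in Sham and 4.51 FPKM in H/R on average, log2 difference -0.28, limma, adjusted p = 0.0149). Fas was also lower in EGR1OV than in Sham without overlap, at 4.23 FPKM on average (log2 difference -0.35, limma, adjusted p = 0.000696). It was not called there because the fold threshold for EGR1OV is 1.3 and not 1.2. Between EGR1OV and H/R its ranges overlapped (log2 difference -0.07, limma, adjusted p = 0.295).

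Of 14 ubiquitin and kinase brakes on Ripk1, all tested, 7 were higher in EGR1OV and 0 lower, and 0 were called in H/R. The largest differences were in Rnf31, the catalytic part of the linear ubiquitin ligase (4.36 to 11.1 FPKM on average, log2 difference 1.18), Birc3, a ubiquitin ligase of Ripk1 (4.84 to 10.3 FPKM, 0.95), and Tnfaip3, the ubiquitin editor A20 (33.6 to 62.5 FPKM, 0.88). Their adjusted p in limma was 1.25e-06, 3.79e-07 and 3.90e-09. The median of the list was 0.36 on the log2 scale in EGR1OV against Sham and 0.00 in H/R against Sham. In EGR1OV against H/R, 4 of the 14 adaptors and receptors and 7 of the 14 regulators were higher and 0 of either list lower. Of all tested genes, 11.9% were called higher there and 6.94% lower.

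**Figure D3:**
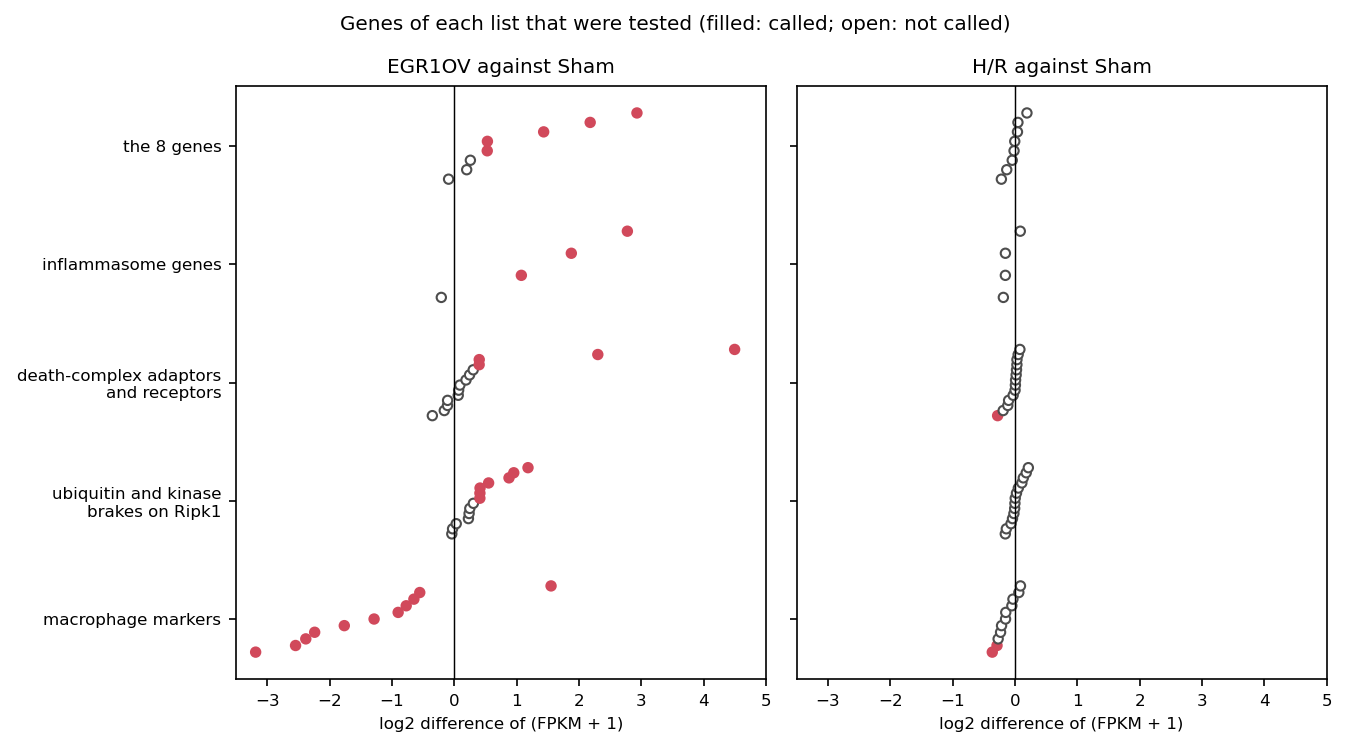
Difference in log2(FPKM + 1) of each tested gene of 5 lists in EGR1OV against Sham (left) and H/R against Sham (right); filled points were called and open points were not, and the vertical place within a list only spreads the points. In EGR1OV the called members of the first 4 lists all lie to the right, up to Zbp1 at 4.50, while 10 of 11 macrophage markers lie to the left; in H/R nearly all points are open and close to 0.

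Interferon response genes moved with these changes. All 12 of the list were called higher in EGR1OV, while in H/R 1 was (Gbp2, 0.27). Of the 12, Ifnb1, Mx1 and Rsad2 passed the filter only through EGR1OV, so their calls were fixed by it. Isg15, Ifit1 and Irf7 had the largest differences in log2(FPKM + 1), 7.29, 7.13 and 6.95. By ratio of mean FPKM the order was another, with 398 for Ifit1, 323 for Rsad2, 271 for Irf7, 258 for Mx1 and 179 for Isg15. Ifnb1, which encodes interferon beta, was listed at 0 in all 6 Sham and H/R libraries and was 3.05, 3.02 and 1.90 FPKM in EGR1OV (24 to 38 reads). Mlkl, Zbp1, Tlr3 and Casp4 are known interferon response genes. The part of the interferon genes in the changes of the 8 genes was not tested.

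Markers of other cell types were read because most of the 8 genes are also expressed in macrophages. The 13 macrophage markers summed to 160 to 167 FPKM in Sham and 137 to 146 FPKM in H/R. Their sum was 45.2 to 53.2 FPKM in EGR1OV, with all 13 above 0 in each group. Of the 11 tested, 10 were lower and 1 higher in EGR1OV against Sham. Lyz2, C1qa and C1qc fell by log2 differences of 3.19, 2.55 and 2.38, whereas Cd14, which tubule cells can also express, was 1.55 higher. In H/R, 2 were lower (Lyz2 and Adgre1) and 0 higher. The part of macrophages in the values of the 8 genes was not tested. In bulk samples fewer cells of a type and less RNA per cell cannot be told apart.

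None of the T, NK and B cell or neutrophil markers passed the filter, and their sums stayed under 0.302 and 0.384 FPKM in every library. Endothelial markers summed to 10.3 to 10.6 FPKM in Sham. The sum was 10.6 to 11.2 FPKM with H/R and 7.37 to 7.97 FPKM with EGR1OV, with 1 of 5 tested genes lower in EGR1OV (Pecam1, -0.46). Fibroblast markers summed to 31.8 to 33.4, 38.0 to 39.5 and 36.8 to 41.8 FPKM. Of 3 tested, 1 was higher in EGR1OV (Col1a2, 0.45) and 2 in H/R (Col1a2 and Col1a1, 0.32 and 0.27). Tubule markers summed to 1895 to 1933, 1751 to 1829 and 1233 to 1337 FPKM. Krt8 and Krt18 made up most of each sum, at 1014 and 685 FPKM on average in Sham and 618 and 412 FPKM in EGR1OV. The other tubule markers moved both ways, as Epcam rose from 76.2 to 100 FPKM and Cdh16 fell from 24.3 to 19.6 FPKM. Of 9 tubule markers tested, 4 were lower and 1 higher in EGR1OV (Lrp2 by -1.05, Aqp1 by -0.75, Krt18 by -0.73, Epcam by 0.39), and 1 was higher in H/R. Their part in the values of the 8 genes was not tested.

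The genes with the profile most like each member over the 9 libraries were found as those with the smallest root mean square difference in centred log2(FPKM + 1), among genes of at least 5 FPKM. Casp1 was left out as its mean was under 1 FPKM. For Mlkl they were Irgm1, an interferon-induced GTPase, and Parp12 (root mean square difference 0.0894 and 0.0924), and for Casp4 Tmem106a and Tlr3 (0.110 and 0.126). Irgm1 averaged 28.5 ± 2.07 FPKM in Sham (SD, n = 3). The mean rose to 249 ± 9.51 in EGR1OV and was 26.6 ± 0.332 in H/R, so it had the shape of Mlkl at a higher level. For Gsdmd they were Fgf7 (0.0867) and Tapbpl (0.111), for Ripk3 Gsr and Kat2a (0.0411 and 0.0539), and for Casp12 Ephx1 and 2810474O19Rik (0.0620 and 0.0642). Casp8 was nearest to Galnt3 and Serpine2 (0.0371 and 0.0403) and Ripk1 to Tm9sf1 and Sulf2 (0.0196 and 0.0205). Galnt3, like Casp8, was higher in both treated groups than in Sham, at 12.7, 14.4 and 14.4 FPKM on average. All these genes were chosen for their likeness over the same 9 libraries, so the shapes shared with the members follow from that choice. No gene was named for more than 1 member.

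**Figure D4:**
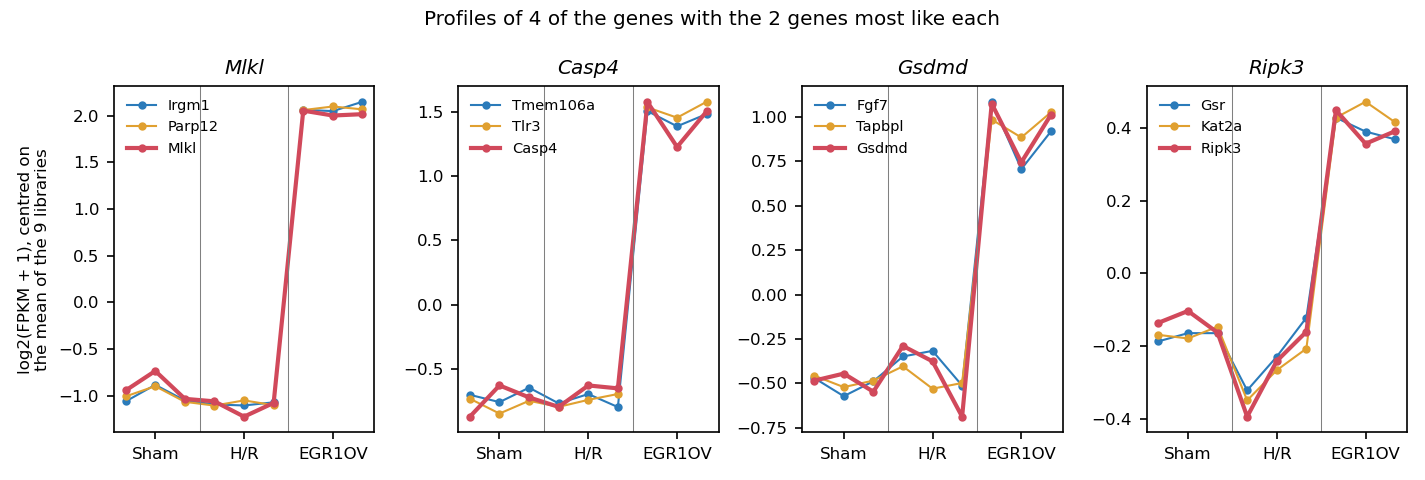
Centred log2(FPKM + 1) over the 9 libraries (3 Sham, 3 H/R and 3 EGR1OV from left to right, separated by grey lines) for Mlkl, Casp4, Gsdmd and Ripk3, in red, with the 2 genes most like each; vertical scales differ. The libraries have no order within a group, and lines only join the points of a gene. The 2 genes were chosen for their likeness over these same libraries, so the shared step up in EGR1OV follows from that choice. For each gene in red, the second EGR1OV library was the lowest of its group.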

How the data were processed

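RNA-seq was measured in 9 libraries, 3 each of Sham, H/R and EGR1OV, grouped by their labels. The authors deposited 1 table of FPKM values per gene and library. The submitters' processing notes name HISAT2 2.1.0, Bowtie2 2.2.3, TopHat2 and mm9 without their roles, but 94.6% of the gene positions equal those of GENCODE M21 on GRCm38, so coordinates are given on GRCm38. The positions and length of Gsdmd differ from that annotation. Strandedness of the counting is not given in the sources used here. A further 26 symbols that a spreadsheet had turned into dates were restored. Whole reads were recovered from the FPKM steps (94% of 162897 values of 1 to 1000 reads were whole within 0.02 reads). Read numbers cover counting error only.

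The 13985 genes whose mean reached 0.5 FPKM were tested with limma 3.58.1 (R 4.3.3, trend, Benjamini-Hochberg over all tested genes) on log2(FPKM + 1), with all 9 libraries in 1 fit. The fold thresholds against Sham were those of the study's methods (1.3 for EGR1OV and 1.2 for H/R). FPKM are relative to each library's total. The test was tried on simulated data. Alternatives were another pseudocount, filters, scalings, fold thresholds, a replicate block, voom on recovered reads and leaving out libraries. The named genes were the 8 members, up to 3 called genes with the largest change per list and comparison, Egr1, and the 2 most similar genes per member. The members and lists were chosen with earlier results of these data known. Protein sequences were not used here, and results on other caspases are not reported here. Plots were drawn with matplotlib 3.10.9.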

Additional observations from a re-analysis of the deposited data

How the results depend on the processing

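With the fold thresholds as reported, each called gene of the 8 stayed called in the same direction, and each of the others stayed uncalled, under every alternative in which it was tested. Casp4 moved from 2.18 to 3.37 with 0.1 added to FPKM and to 3.62 with voom in EGR1OV against Sham, and from 2.13 to 3.24 and 3.45 in EGR1OV against H/R. Several differences near 0 turned sign: without 1 library, these were Casp1 in each comparison, Casp4, Casp12, Ripk1 and Gsdmd in H/R against Sham and Casp8 in EGR1OV against H/R, and with another scaling Casp1 and Ripk1 in H/R against Sham and Casp8 in EGR1OV against H/R. A mean of at least 5 FPKM left 4 of them in the test, of which 2 were called in EGR1OV against Sham and 2 against H/R, with 1315, 372 and 1520 genes called in EGR1OV against Sham, H/R against Sham and EGR1OV against H/R (2291, 594 and 2641 as reported). At least 2-fold gave 484, 11 and 489 genes, with 3 of the 8 in each EGR1OV comparison, and no fold threshold gave 6417, 1635 and 7135 genes, with 1 of the 8 in H/R. In H/R against Sham, voom on recovered reads called 1000 genes. Leaving out the 3 libraries highest in Gm23935 (Sham 3, H/R 2 and H/R 3), chosen after seeing the data, called 54; it leaves 1 H/R library, assumed to vary like the others. Leaving out 1 library at a time gave 2238 to 2373, 449 to 579 and 2583 to 2703 genes. The share of calls that were higher was 60.3% in EGR1OV against Sham (45.9% with quantile normalization), 37.7% in H/R against Sham (58.2% with median-ratio scaling, 56.5% with quantile normalization) and 63.2% in EGR1OV against H/R (51.0% and 42.5%). The causes were not tested.

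With the replicate number as a block, 2309, 516 and 2654 genes and 5, 0 and 5 of the 8 were called. Same-numbered libraries had correlations of their deviations from -0.195 to 0.263, so the numbers were not taken as pairs. Casp1 (8 to 26 reads) and Sham and H/R Casp4 (20 to 39 reads) limit what these libraries can show.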

Other observations

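Nlrp1b, a sensor that activates Casp1 and was below the filter on low values, had 11, 14 and 20 reads in the Sham libraries, 16, 11 and 13 in the H/R libraries and 1, 0 and 0 in the EGR1OV libraries. It was chosen after its values were seen and was not tested. Gsdme, another gasdermin, was 0.387, 0.405 and 0.333 FPKM in Sham, 0.325, 0.431 and 0.513 in H/R and 0.402, 0.341 and 0.359 in EGR1OV, with overlapping groups.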
